A study of Mus musculus with 6 samples.

Results

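The TAM receptors *Axl*, *Mertk* and *Tyro3* and their ligands *Gas6* and *Pros1* were followed in the transcriptome of activated splenic B cells with and without hnRNPL, an RNA-binding protein of the spliceosomal hnRNP family. The 5 genes were taken by symbol from the 55421 genes of the deposited expression table, and 3 of them (*Axl*, *Tyro3* and *Pros1*) reached the mean of 10 normalized counts that was required for testing, as did 17640 genes in all. The set was chosen by the normalized counts of *Axl* in the WT against hnRNPL-deficient comparison, in which *Axl* has one of the lowest ratios, so the values of the members in this comparison are given as a description and without a p-value. A member is called lower or higher below only to place it beside other genes.

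RNA was sequenced from 3 WT and 3 hnRNPL-deficient mice, each as a library of its own. WT mice carried *CD21-cre* and the *Rosa* mT/mG reporter. The hnRNPL-deficient mice carried these alleles together with homozygous floxed *Hnrnpl* (hnRNPL F/F CD21-cre in the labels). All mice were on the C57BL6/J background, and mice of both sexes were used, but neither age nor sex is labelled for single libraries. Cre is driven by *CD21* (*Cr2*) sequences, so its activity is found chiefly in mature B cells outside the bone marrow. The reporter switches cells from tdTomato to GFP once Cre has acted, so that GFP marks Cre activity at the reporter and not the *Hnrnpl* deletion itself. Splenic B cells of both groups were cultured for 24 h with IL-4 (5 ng/ml) and LPS (5 ug/ml), the GFP+ fraction was sorted, and polyadenylated RNA was sequenced. The comparison addresses which early changes in RNA accompany the loss of hnRNPL before these cells die. No resting cells and no other stimulus were among the 6 libraries, so induction of a gene by LPS and IL-4 was not measured.

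TAM receptors are receptor tyrosine kinases with immunoglobulin-like and fibronectin type III domains outside the cell. They do not bind apoptotic cells directly. Gas6 and protein S (encoded by *Pros1*) act as bridges, because their vitamin K-dependent Gla domains bind phosphatidylserine on dying cells or vesicles while their carboxy-terminal domains bind the receptor. Gas6 activates all members of the family and protein S mainly Tyro3 and Mertk. The family is known for the clearance of apoptotic cells and for damping innate immune responses in macrophages and dendritic cells, and Axl is known as a receptor of Gas6 in particular.

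The promoters of the members with the largest differences, *Axl* and *Pros1*, are shown to give the sequence context of the genes that the results turn on. They are the 300 bases around the RefSeq gene start in GRCm38.p6, at chr7:25788684-25788983 (minus strand) for *Axl* and chr16:62854057-62854356 (plus strand) for *Pros1*, and are written 5′ to 3′ in the direction of transcription. Capitals mark the GC box GGGCGG on either strand (CCGCCC on the opposite strand), the letters that transcription factors of the Sp family are known to bind.
Axl: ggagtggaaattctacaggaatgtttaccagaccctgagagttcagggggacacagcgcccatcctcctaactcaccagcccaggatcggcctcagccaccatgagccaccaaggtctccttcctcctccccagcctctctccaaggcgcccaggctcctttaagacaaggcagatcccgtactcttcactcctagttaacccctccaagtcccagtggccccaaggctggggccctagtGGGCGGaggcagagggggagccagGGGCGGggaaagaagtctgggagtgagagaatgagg
Pros1: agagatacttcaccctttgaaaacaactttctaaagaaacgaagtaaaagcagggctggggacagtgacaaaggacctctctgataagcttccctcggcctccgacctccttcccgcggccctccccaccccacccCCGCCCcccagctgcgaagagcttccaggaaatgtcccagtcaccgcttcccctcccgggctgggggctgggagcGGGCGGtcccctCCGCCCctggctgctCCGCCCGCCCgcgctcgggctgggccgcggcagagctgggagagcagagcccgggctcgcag

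GC boxes were found in the promoters of all members. There were 2 in *Axl*, 4 in *Mertk*, 6 in *Tyro3*, 4 in *Gas6* and 5 in *Pros1*, counting both strands and overlapping matches, and 35.7% of 32851 mouse promoters of the same length held at least 1. The 5 windows differed more in CpG dinucleotides, of which there were 6 in *Axl*, 14 in *Mertk*, 17 in *Gas6*, 21 in *Pros1* and 31 in *Tyro3*, than in GC content, which lay between 58.3% and 73.3%. The letters of an AP-1 site (TGANTCA, held by 7.81% of promoters), of a TATA box (TATAAA, 13.6%) and of a short CA repeat (CACACA, 21.1%, the type of sequence hnRNPL is known to bind in RNA) were absent from all 5 windows on both strands. These matches describe the letters only, since factor binding, promoter activity and the transcript starts used in these cells were not measured here.

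The libraries held between 40395186 (hnRNPL-deficient library 3) and 75180749 reads on genes (WT library 3), and between 24009 and 26283 genes were detected in each. The targeted gene followed the labels. WT libraries had 24371, 25580 and 24174 normalized counts of *Hnrnpl*, and hnRNPL-deficient libraries 2178, 1519 and 1297, a log2 fold change of -3.93 (SE 0.173), the lowest of all tested genes. WT library 3 and hnRNPL-deficient library 2 had 98507 and 98219 normalized counts of *Xist*, the RNA of the inactive X chromosome, and at most 3.06 of the Y-linked *Ddx3y*, while the other 4 had 2.32 to 7.21 and 3752 to 4284. Of all tested genes, 719 (4.08%) were called lower and 1284 (7.28%) higher in hnRNPL-deficient cells by limma at an adjusted p under 0.1 and a change of at least 1.5-fold, and the median log2 fold change was -0.03. The labels name no shared batch, litter or day, and the p-values below measure the spread between these mice.

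*Axl* was the most abundant TAM receptor in WT B cells and the member with the largest difference. The gene (ENSMUSG00000002602.16) lies on the minus strand of chromosome 7 from 25757273 to 25788705 in GRCm38. WT libraries 1, 2 and 3 had 121.9, 127.1 and 114.7 normalized counts of *Axl*, and hnRNPL-deficient libraries 1, 2 and 3 had 21.6, 20.2 and 12.3. All WT libraries were thus close together and far above all hnRNPL-deficient ones. The WT mean was 121.2 ± 6.22 and the hnRNPL-deficient mean 18.1 ± 5.01 (SD, n = 3 mice each), or 14.9% of it. On the scale of log2(normalized count + 1) the fold change was -2.72 (SE 0.296), or 6.58-fold lower, the 10th lowest of 17640 genes. Sorted cells were sequenced in bulk, so fewer cells with *Axl* RNA and less *Axl* RNA per cell cannot be told apart.

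The number of reads behind these values was small in the hnRNPL-deficient group. WT libraries held 105, 147 and 150 reads on *Axl*, and hnRNPL-deficient libraries held 24, 20 and 9. The 9 reads of hnRNPL-deficient library 3, the shallowest, have a 95% Poisson interval of 4.12 to 17.1 reads, or 5.64 to 23.4 normalized counts, so the position of this library below the others of its group is within counting error. The lowest bound among the WT libraries (97.1) was still above the highest bound among hnRNPL-deficient ones (32.2). Intervals and floors here cover counting error only. Leaving out single libraries gave log2 fold changes between -2.86 and -2.48. The log2 fold change was -2.85 among the 4 libraries low in *Xist* and -2.45 between the pair high in it (1 mouse of each group).

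*Tyro3*, the other TAM receptor with more than a few reads, differed far less. The gene (ENSMUSG00000027298.17) lies on the plus strand of chromosome 2 from 119797733 to 119818104. WT libraries held 38.3, 46.7 and 49.7 normalized counts and hnRNPL-deficient libraries 35.2, 27.3 and 32.9. The groups did not overlap, but the lowest WT and the highest hnRNPL-deficient value were only a few counts apart, within the counting interval of either (26.4 to 53.8 for WT library 1). Groups that did not overlap, with WT above, were found for 16.3% of all tested genes. The means were 44.9 ± 5.91 and 31.8 ± 4.07 (SD, n = 3 mice each), the latter 70.8% of the former, and the log2 fold change was -0.49 (SE 0.280), which did not reach the thresholds used for calling a gene. It was -0.31 among the 4 libraries low in *Xist* and -0.84 between those high in it (1 mouse of each group), and between -0.59 and -0.38 without any single library.

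*Mertk*, the TAM receptor known best from macrophages, was at the floor of detection. The gene (ENSMUSG00000014361.5) lies on the plus strand of chromosome 2 from 128698956 to 128802894, 8.88 Mb from *Tyro3*. It had 2 reads in WT library 1, 3 reads in hnRNPL-deficient library 1 and none in the other 4 libraries. Both groups lie at or below the floor of 3 reads, so no ratio is given. A library without a read allows up to 3 reads, which is between 2.29 and 4.11 normalized counts in those with none.

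**Figure D1:**
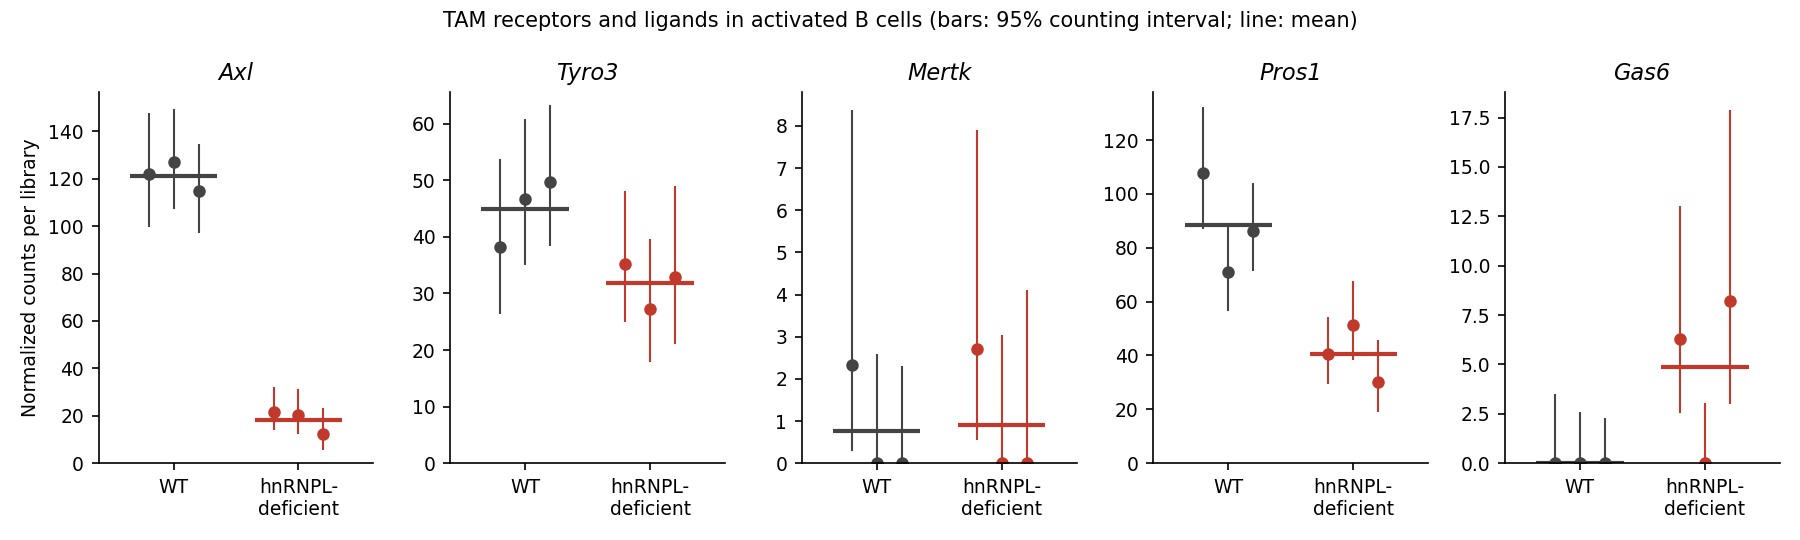
Normalized counts (y axis, linear, a separate scale in each panel) of the TAM receptors and ligands in the 3 WT (grey) and 3 hnRNPL-deficient libraries (red), in which each point is 1 mouse in the order of its replicate number, each bar its 95% Poisson interval (for 0 reads, up to the floor of 3 reads) and each horizontal line a group mean. For *Axl* the WT points lie between 114.7 and 127.1 and the hnRNPL-deficient points between 12.3 and 21.6, while *Mertk* is near 0 in both groups.

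*Pros1*, the gene of protein S, was the more abundant ligand transcript in these B cells. The gene (ENSMUSG00000022912.8) lies on the plus strand of chromosome 16 from 62854307 to 62929346. WT libraries had 107.9, 70.9 and 86.4 normalized counts, and hnRNPL-deficient libraries had 40.6, 51.5 and 30.2. All WT values were above all hnRNPL-deficient ones, but WT libraries spread more than for *Axl*. The means were 88.4 ± 18.6 and 40.7 ± 10.7 (SD, n = 3 mice each), the latter 46.1% of the former, with 93, 82 and 113 reads in WT and 45, 51 and 22 in hnRNPL-deficient libraries. The log2 fold change was -1.11 (SE 0.298), or 2.16-fold lower, the 309th lowest of all tested genes.

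The *Pros1* difference was -1.30 on the log2 scale among the 4 libraries low in *Xist* and -0.74 between those high in it (1 mouse of each group). It was -1.29 to -0.92 without any single library. *Pros1* met the calling thresholds with all 6 libraries, but not without WT library 1 (-0.96), WT library 3 (-1.12), or without library 1 (-1.12) or 3 (-0.92) of the hnRNPL-deficient mice. Of the 3 members that could be tested, 2 (*Axl* and *Pros1*) were called lower and none higher, and 4.08% of all tested genes were called lower by limma. Because the members were chosen with this comparison known, nothing is read from that count.

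*Gas6*, the ligand of all TAM receptors, had reads in hnRNPL-deficient libraries only. The gene (ENSMUSG00000031451.6) lies on the minus strand of chromosome 8 from 13465374 to 13494490. WT libraries held no read, and hnRNPL-deficient libraries 1, 2 and 3 held 7, 0 and 6 reads, or 6.31, 0 and 8.22 normalized counts. The hnRNPL-deficient mean of 4.84 was 5.37 times the floor of the WT mean, taken as 3 reads over the WT group. This ratio is no lower bound, as it leaves out the counting error of the hnRNPL-deficient reads. The lower 95% bounds of hnRNPL-deficient libraries 1 and 3 (2.54 and 3.02 normalized counts) were below the floor of WT library 1 (3.48). The hnRNPL-deficient library 2 was as empty as the WT libraries. *Gas6* did not reach the mean required for testing.

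Levels of different genes were compared as normalized counts per kb of annotated exon. In WT cells the order was *Axl* (24.1 ± 1.24), *Pros1* (21.6 ± 4.55), *Tyro3* (7.24 ± 0.954), *Mertk* (0.178 ± 0.309) and *Gas6* (0 in all libraries; SD, n = 3 mice each). *Axl* and *Pros1* overlapped, with 22.8 to 25.3 against 17.3 to 26.4, and both were well above *Tyro3*. All were low for this transcriptome, since only 17.3% of tested genes had a WT level per kb below that of *Axl*, 16.2% below that of *Pros1* and 6.56% below that of *Tyro3*. In hnRNPL-deficient cells the order was *Pros1* (9.97 ± 2.61), *Tyro3* (5.13 ± 0.656), *Axl* (3.59 ± 0.995), *Gas6* (1.90 ± 1.69) and *Mertk* (0.208 ± 0.360). There, *Pros1* (7.38 to 12.6) lay above *Tyro3* (4.40 to 5.67), *Tyro3* was barely above *Axl* (2.45 to 4.30), and *Axl* overlapped with *Gas6* (0 to 3.23).

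The make-up of the receptor transcripts differed accordingly. This follows largely from the *Axl* values by which the set was chosen, so the shares and ratios are a description only. *Axl* made up between 74.0% and 78.3% of the summed level per kb of the 3 receptors in WT, and 40.6%, 47.7% and 31.6% in hnRNPL-deficient libraries 1, 2 and 3. *Tyro3* took 23.0% ± 3.02 in WT and 58.1% ± 8.97 in the absence of hnRNPL (SD, n = 3 mice each), and was thus above *Axl* per kb in the hnRNPL-deficient libraries. Within each hnRNPL-deficient library the counting intervals of both genes per kb overlapped, most in library 2, with 27 *Tyro3* and 20 *Axl* reads, so this order cannot be told from counting error in a single library. The ratio of *Axl* to *Tyro3* per kb was 3.37 ± 0.538 in WT against 0.711 ± 0.229, and that of *Axl* to *Pros1* 1.15 ± 0.277 against 0.361 ± 0.0626 (SD, n = 3 mice each). Reads could not have been split between near-identical copies over long stretches, as none of the 2449 to 6380 stretches of 100 bases in the annotated transcripts of each member occurred in a transcript of another gene.

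**Figure D2:**
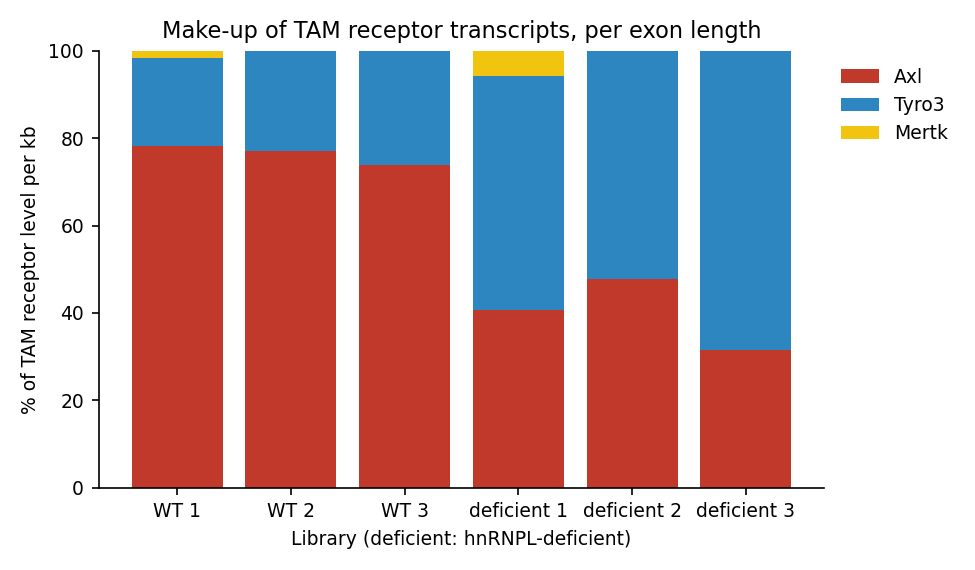
Share of *Axl* (red), *Tyro3* (blue) and *Mertk* (yellow) in the summed normalized counts per kb of exon of the TAM receptors (y axis, %), in each of the 6 libraries (x axis, 1 bar each and no error bar). *Axl* takes 74.0% to 78.3% in the WT libraries and 31.6% to 47.7% in the hnRNPL-deficient ones, which follows largely from the *Axl* values by which the set was chosen.

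TAM receptors are best known in macrophages and dendritic cells, and their ligands are also found in platelets and endothelium, so markers of these cells were read in the same libraries. The sorted cells had B cell transcripts, with all 10 B cell markers tested. Of them 1 (*Cr2*, the gene that names the Cre driver) was called higher and none lower, against 7.28% and 4.08% of all tested genes. *Cd79a* had means of 18631 (WT) and 22515 normalized counts (hnRNPL-deficient), and *Cd22* 33023 and 22616. *Cd22* (log2 fold change -0.55, adjusted p = 0.00987 from limma) and *Ms4a1* (-0.40, adjusted p = 0.0988 from limma) were under the fold required for a call. Their groups did not overlap, as for 16.3% of all tested genes with WT above. Of 17 macrophage and monocyte markers only 6 were tested. *C1qa*, *C1qb*, *C1qc* and *Cd163* were at 0 in every library, and the defining receptor *Csf1r* had 4.04 ± 2.09 and 4.16 ± 2.46 normalized counts. The summed macrophage markers were 3361 to 3544 in WT and 3555 to 3591 in hnRNPL-deficient libraries, and the largest single part was *Mpeg1*, which encodes a pore-forming protein that is also found in B cells. Within the list *Mpeg1* was lower (log2 fold change -0.63, SE 0.0965, adjusted p = 0.00550 from limma) and *Adgre1*, which encodes F4/80, higher (278 ± 39.9 to 1308 ± 80.1 normalized counts, log2 fold change 2.24, SE 0.148, adjusted p = 0.000139 from limma). Both were singled out from the list after their values were seen.

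The summed platelet list was 13.9 to 40.5 in WT and 18.0 to 31.5 in hnRNPL-deficient libraries, a level like that of *Axl* in the latter. Most of it was the integrin gene *Itga2b* (29.2 ± 13.4 and 26.0 ± 7.74 normalized counts), while platelet *Pf4* and *Ppbp* had no read in any library. The NK cell sums were 0 to 5.80 and 3.03 to 9.92, and the neutrophil sums 1.16 to 6.88 and 1.80 to 4.04. T cell markers summed to 57.9 to 60.3 in WT and 47.5 to 49.3 in hnRNPL-deficient libraries (*Cd8b1* was called lower, and passed the filter only through its WT values), and erythroid markers to 17.6 to 38.3 and 55.0 to 84.8 (*Hbb-bt* called higher). The summed dendritic cell list was 2033 to 2315 in WT and 3383 to 3612 in hnRNPL-deficient libraries. Most of this sum was *Ccr7* (1380 to 1576 in WT and 2743 to 2922 in hnRNPL-deficient libraries), also a B cell gene. Of 8 markers 4 were tested. *Ccr7* and *Xcr1*, which passed the filter only through its hnRNPL-deficient values, were called higher, where 7.28% of all tested genes were. *Zbtb46* (-0.17) and *Flt3* (-0.14) were not called, and *Itgax*, *Clec9a* and *Siglech* were at 0 throughout. Stromal and endothelial markers summed to 2647 to 2774 in WT and 3763 to 4485 in hnRNPL-deficient libraries, with 2 of 8 tested and *Dcn* at 0. Most of this sum was *Pecam1* (2572 ± 80.6 to 3723 ± 427.4 normalized counts, log2 fold change 0.53, adjusted p = 0.0188 from limma), which is also found in blood cells and was under the fold required for a call, and *Cdh5* (117.4 ± 10.1 to 299.4 ± 52.9) was called higher. The part of these lists in the members' values was not tested.

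*Axl* lies 3.02 Mb from *Hnrnpl* on chromosome 7, so the genes around the targeted locus were read as well. Of 60 tested genes between them, 2 were called lower and 5 higher, or 11.7% (95% Wilson interval 5.77% to 22.2%), where 11.4% of all tested genes were called in either direction. Within 5 Mb of *Hnrnpl*, without *Axl* and *Hnrnpl* themselves, 13 of 202 tested genes were called lower and 18 higher, or 15.3% (95% Wilson interval 11.0% to 21.0%). Over all tested genes 4.08% were called lower and 7.28% higher. The share called in either direction was 14.4% within 2 Mb and 13.6% within 10 Mb. Within 5 Mb the lowest values beside *Axl* and *Hnrnpl* were those of *Ffar2* (log2 fold change -2.64, 2.01 Mb beyond the *Hnrnpl* start), close to *Axl*, *Syne4* (-1.89) and *Ryr1* (-1.57), named after their values were seen. The called genes between *Axl* and *Hnrnpl* had smaller changes than *Axl*. The lower ones were *Plekhg2*, a guanine nucleotide exchange factor gene (1224 ± 266.7 to 684.2 ± 154.2 normalized counts, log2 fold change -0.84, SE 0.216, adjusted p = 0.0409 from limma), and the kinase gene *Map3k10* (302.6 ± 52.2 to 182.4 ± 20.9, log2 fold change -0.72, SE 0.196, adjusted p = 0.0505 from limma). The higher ones ranged from 0.62 for *Rinl* (adjusted p = 0.0302 from limma) through *Zfp607b* (0.97), *Eid2* (1.20) and *Lrfn1* (1.33) to 1.75 for *Fbxo27*. *Fbxo27* passed the filter only through its hnRNPL-deficient values, and without it 6 of 59 genes between the loci, or 10.2%, were called. Each of these 7 calls was lost without at least 1 of the libraries, and the highest adjusted p over all alternatives was 0.254. What the position near *Hnrnpl* contributes to the *Axl* values was not tested.

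**Figure D3:**
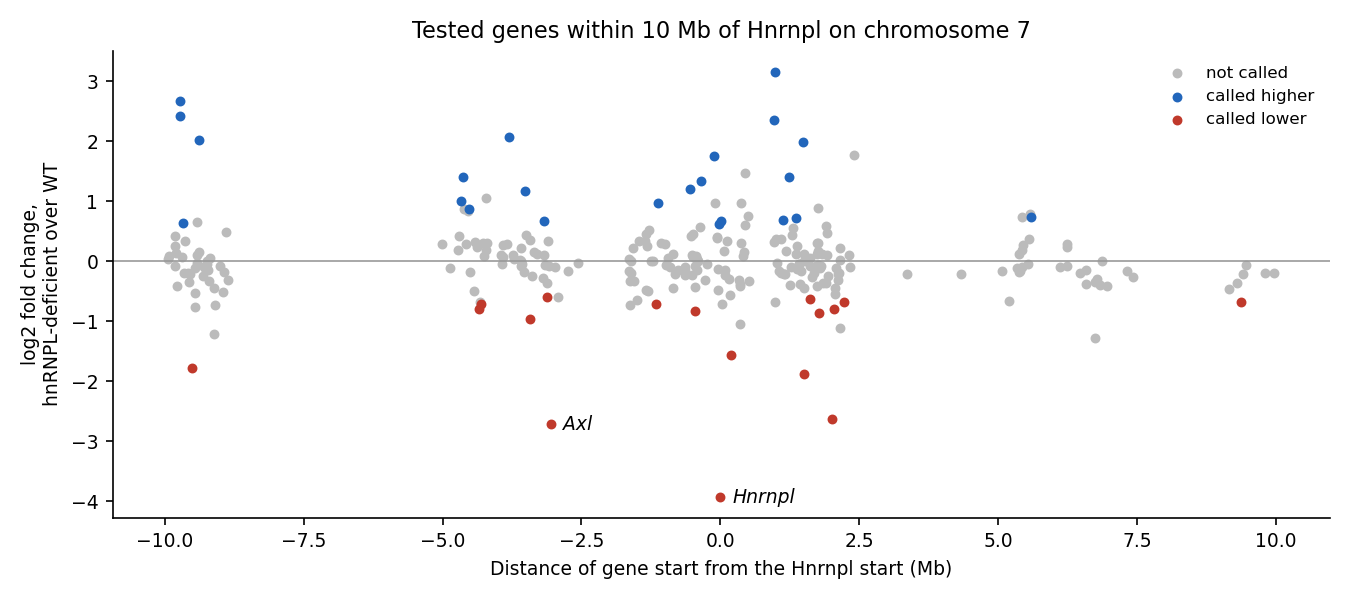
Fitted log2 fold change, hnRNPL-deficient over WT (y axis), of tested genes against the distance of their start from that of *Hnrnpl* (x axis, Mb), with 1 point per gene, called lower (red), higher (blue) or not called (grey). *Axl*, at -2.72, and *Hnrnpl*, at -3.93, are among the lowest, with a further gene (*Ffar2*) at -2.64, and called genes of both directions are spread along the window.

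None of the nearest tested genes on either side of the members was called, where 11.4% of all tested genes were called in either direction. Called genes were found further out. Within 1 Mb, 5 of 33 tested genes were called around *Axl* (15.2%) and 7 of 27 around *Mertk* (25.9%, 95% Wilson interval 13.2% to 44.7%). The counts were 3 of 43 around *Tyro3*, 2 of 23 around *Gas6* and 0 of 4 around *Pros1*. The nearest tested genes on each side of *Axl* were *Hnrnpul1*, an hnRNP U-like gene 2.52 kb away (log2 fold change -0.08, SE 0.0972, adjusted p = 0.635 from limma), and the processed pseudogene *Gm4613*, 39.9 kb away (-0.11, SE 0.199, adjusted p = 0.769 from limma). *Hnrnpul1* had 27184 ± 1993 normalized counts in hnRNPL-deficient and 28680 ± 962.4 in WT cells, with groups that overlapped. Next to *Pros1*, *Arl13b* had a log2 fold change of 0.17 (SE 0.139, adjusted p = 0.467 from limma). *Rpap1* (-0.12) and *Mga* (-0.15) beside *Tyro3*, *Anapc1* (-0.23) and *Tmem87b* (-0.07) beside *Mertk*, *Tfdp1* (-0.33) and *1700029H14Rik* (-0.77) beside *Gas6*, and the distant *4930453N24Rik* (-0.05) beside *Pros1* were not called either. *Tmem255b*, which overlaps the end of *Gas6*, and *Gm14011* and *Gm23172*, which overlap *Mertk*, had no read in any library.

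The other genes of the pathway were read from lists that hold 154 genes, of which 76 were tested. In all, 4 (5.26%) were called lower and 11 (14.5%) higher by limma, against 4.08% and 7.28% of all tested genes. The 11 include *Lrp1*, which passed the filter only through its hnRNPL-deficient values and so had to differ. The count of 15 was 7 without WT library 3 and 9 without WT library 2. The lists were written with earlier results of these data known.

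Genes that make or extend the set of TAM ligands were mostly present. Gas6 and protein S need gamma-carboxylation by *Ggcx*, which depends on vitamin K that *Vkorc1* and *Vkorc1l1* recycle. *Ggcx* had 214.7, 331.1 and 314.3 normalized counts in WT and 402.1, 447.3 and 442.7 in hnRNPL-deficient libraries (log2 fold change 0.61, SE 0.195, adjusted p = 0.0817 from limma). *Vkorc1l1* (-0.35, SE 0.113) and *Vkorc1* (0.14, SE 0.360) were not called. *Lgals3*, the gene of galectin-3, which has been reported as a further Mertk ligand, had 22.0, 30.3 and 18.4 normalized counts in WT and 55.9, 58.6 and 42.5 in hnRNPL-deficient libraries (log2 fold change 1.13, SE 0.314, adjusted p = 0.0524 from limma). The groups did not overlap for either gene, as for 17.7% of all tested genes with the hnRNPL-deficient group above. Both calls were fragile, since *Ggcx* was not called when any of the 6 libraries was left out, and *Lgals3* not without WT library 1 or 3 or hnRNPL-deficient library 1 or 2 (highest adjusted p of 0.184 and 0.176 from limma). Of the 4 tested genes of this list, 2 were called higher and none lower by limma (1 was lower at an unadjusted p under 0.05), with a median log2 fold change of 0.37. By limma 7.28% of all tested genes were called higher. The fits of edgeR and DESeq2, run without hnRNPL-deficient library 2, called 0.

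Axl and Mertk are released from the cell surface by the proteases ADAM10 and ADAM17. *Adam10* (-0.24, SE 0.133) and *Adam17* (0.02, SE 0.0902) were not called. *Rhbdf1*, which encodes iRhom1, a partner in the maturation of ADAM17, had 134.6, 157.4 and 165.2 normalized counts in WT and 73.0, 94.9 and 79.5 in hnRNPL-deficient libraries, and was lower (log2 fold change -0.88, SE 0.215, adjusted p = 0.0343 from limma). Without WT library 2 or 3 it was not called (-0.86 and -0.82). *Rhbdf1* was the only called gene of 4 tested, where 11.4% of all tested genes were called in either direction. *Rhbdf2*, on the same list and more abundant, was not called (1764 ± 267.9 to 1731 ± 363.4 normalized counts, -0.04, SE 0.178).

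Downstream of the receptors, 16 of 18 genes of proximal signaling were tested and 1 was called, with a list median of -0.07. Of all tested genes, 11.4% were called in either direction, so this list held no more calls than that share. *Src*, a kinase known to act downstream of several receptor tyrosine kinases, had 156.7, 259.4 and 231.7 normalized counts in WT and 86.5, 113.1 and 106.9 in hnRNPL-deficient libraries and was lower (log2 fold change -1.05, SE 0.245, adjusted p = 0.0301 from limma), though not without WT library 2 (-0.90) or 3 (-0.98). The adaptor *Grb2* (0.07) and the phosphoinositide 3-kinase subunits *Pik3r1* (-0.12), *Pik3cd* (-0.25) and *Pik3ca* (-0.30) were not called.

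TAM receptors are known to use the type I interferon receptor to raise the inhibitors SOCS1 and SOCS3. Of the 12 tested genes of this list, which also holds the nuclear receptors that raise *Mertk*, only *Socs3* was called by limma, while edgeR called 2 and DESeq2 3. At an unadjusted p under 0.05 in limma there were 6, of which 3 were lower. By limma 11.4% of all tested genes were called in either direction. *Socs3* had 1134, 1054 and 1118 normalized counts in WT and 703.2, 782.5 and 464.6 in hnRNPL-deficient libraries, so the groups were apart (log2 fold change -0.79, SE 0.192, adjusted p = 0.0334 from limma). The call was lost without WT library 3 (-0.78) or hnRNPL-deficient library 3 (-0.57). *Socs1* (-0.28, SE 0.277) and *Ifnar1* (0.21, SE 0.0905) were not called, and the list median was -0.04.

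Among other receptors and bridges for phosphatidylserine the called genes were all higher in hnRNPL-deficient cells. Of 17 such genes 8 were tested, 6 were called higher and none lower by limma, edgeR and DESeq2, and the median log2 fold change was 1.00, where 7.28% of all tested genes were called higher. Among the other 9, *Timd4*, *Megf10* and *Cd300lb* had no read in any library. One of the 6, the endocytic receptor gene *Lrp1*, had 9.28, 5.19 and 4.59 normalized counts in WT and 30.7, 24.2 and 21.9 in hnRNPL-deficient libraries (log2 fold change 1.90, SE 0.400). It passed the filter only through its hnRNPL-deficient values, and so had to differ. Without it 5 of 7 tested genes were called higher and the median was 0.99.

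The integrin subunits of the bridge MFG-E8 and the bridge itself were among them. *Itgb3* had 441.0, 556.8 and 488.7 normalized counts in WT and 1243, 1053 and 1280 in hnRNPL-deficient libraries (log2 fold change 1.27, SE 0.142, adjusted p = 0.00162 from limma). *Itgb5* had 38.3, 25.9 and 38.2 in WT and 106.4, 82.8 and 94.6 in hnRNPL-deficient libraries (log2 fold change 1.46, SE 0.273, adjusted p = 0.0130 from limma). Their shared partner *Itgav* was not called (-0.20, SE 0.103). The remaining called genes, named after their values were seen, were *Mfge8* (103.6 ± 9.66 to 209.5 ± 48.6 normalized counts, log2 fold change 0.99, adjusted p = 0.0308 from limma), *Havcr1*, which encodes the phosphatidylserine receptor TIM-1 (57.3 ± 17.3 to 113.3 ± 5.42, 1.01, adjusted p = 0.0473 from limma), and the scavenger receptor *Cd36* (5789 ± 1205 to 9051 ± 1433, 0.65, adjusted p = 0.0402 from limma). *Mfge8* was not called without WT library 3 (0.91), *Havcr1* not without WT library 2 (0.81) or any 1 of the hnRNPL-deficient libraries (0.99 to 1.05), and *Cd36* not without WT library 2 (0.56) or 3 (0.58) or hnRNPL-deficient library 3 (0.54). Between 4 and 6 of the list were called higher in every alternative run. Without the filter on low values, 14 genes were tested, 6 were called higher and 1 lower, and the median was 0.53. The sums of the dendritic cell and stromal marker lists, mostly *Ccr7* and *Pecam1*, were also higher in hnRNPL-deficient libraries, and their part in this list was not tested.

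No gene was called in the machinery that exposes phosphatidylserine or in that which engulfs cells. Of all tested genes, 11.4% were called in either direction by limma. For exposure, 10 of 14 genes were tested and 0 were called by limma, edgeR or DESeq2 (2 at an unadjusted p under 0.05 in limma), including the scramblase genes *Xkr8* (0.09, SE 0.172) and *Ano6* (0.25, SE 0.0937), and the median was -0.03. For engulfment, 9 of 11 genes were tested and 0 were called by limma, edgeR or DESeq2 (2 at an unadjusted p under 0.05 in limma), including *Elmo1* (-0.06, SE 0.0977) and *Rac1* (-0.06, SE 0.112), with a median of -0.08.

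**Figure D4:**
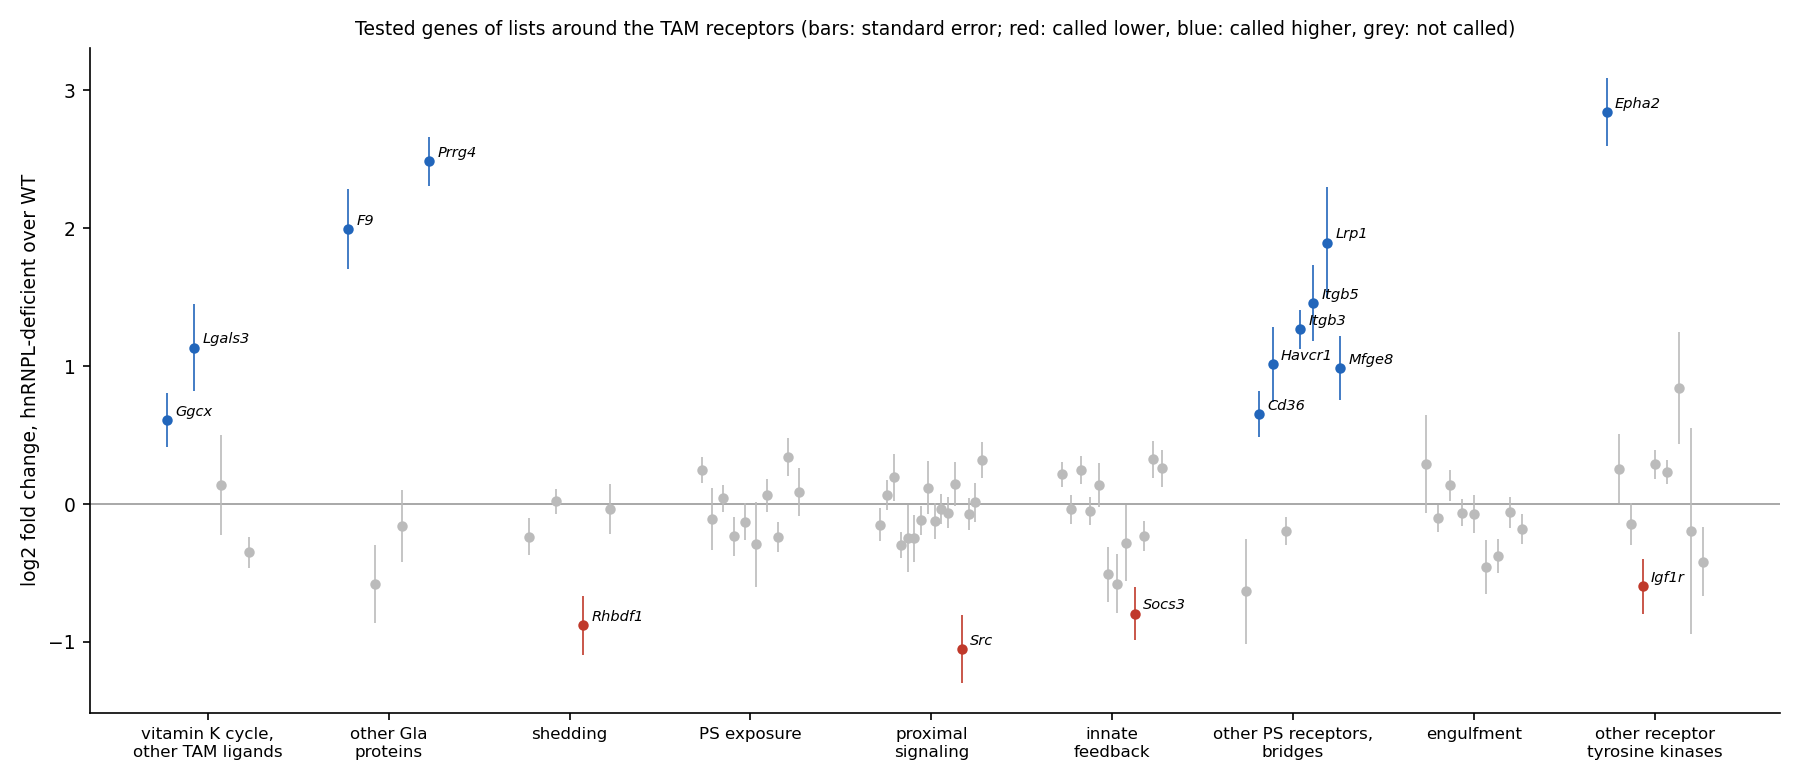
Fitted log2 fold change, hnRNPL-deficient over WT (y axis), of the tested genes in 9 lists around the TAM receptors (x axis, PS for phosphatidylserine), with 1 point per gene, its standard error as a bar, and called genes named in red (lower) or blue (higher). Of the other phosphatidylserine receptors and bridges 6 of 8 lie between 0.65 and 1.90 and are called higher, while most genes of signaling, exposure and engulfment lie near 0. The highest of the 6, *Lrp1*, passed the filter only through its hnRNPL-deficient values.

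To place *Axl* among all genes, the genes with the most similar profile were sought, as those with the smallest root mean square difference in log2(normalized count + 1) over the 6 libraries after centring each gene on its own mean. The nearest were *Mtap*, a gene of methionine salvage on chromosome 4 (0.239), *Pld4*, a lysosomal exonuclease gene on chromosome 12 (0.246), *Pfkl*, a phosphofructokinase gene on chromosome 10 (0.278), *Msrb3*, a methionine sulfoxide reductase gene on chromosome 10 (0.286), and *Trip13*, an ATPase gene of the spindle checkpoint on chromosome 13 (0.315). None lies on chromosome 7. Most were far more abundant, with WT means of 10801 ± 1761 normalized counts for *Mtap*, 3994 ± 285.8 for *Pfkl* and 2152 ± 298.9 for *Pld4* against 22.4 ± 5.13 for *Msrb3*. Their log2 fold changes of -2.67 to -2.25 follow from the way they were chosen. For *Pros1* the nearest were *Gm50109* (0.122), *Zfp980* (0.133) and *Gm3320* (0.133). *Msrb3* and *Zfp980* passed the filter only through their WT values.

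**Figure D5:**
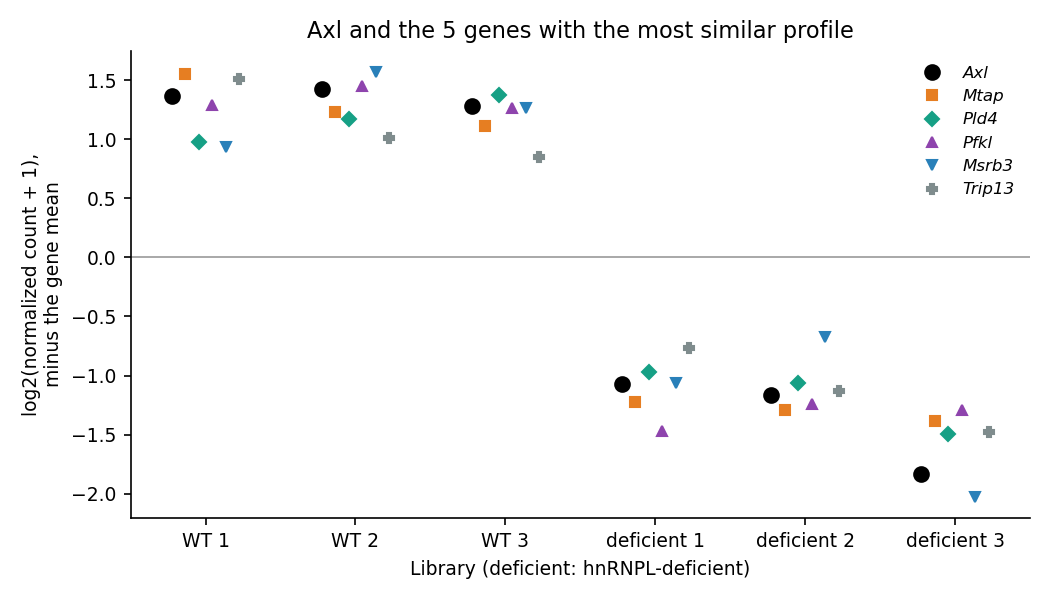
log2(normalized count + 1) minus the gene's mean over the 6 libraries (y axis) for *Axl* and the 5 genes with the most similar profile (symbols), in each library (x axis). All 6 genes lie above 0 in the WT libraries and below 0 in the hnRNPL-deficient ones. All but *Pfkl* are lowest in hnRNPL-deficient library 3, where *Msrb3* and *Axl* (9 reads) lie furthest below 0.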

How the data were processed

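Libraries of 3 WT and 3 hnRNPL-deficient mice were grouped by the labels. The authors trimmed reads (fastp 0.23.1), aligned them to mm10 (STAR 2.7.9a), counted them per gene by strand (featureCounts) and deposited counts divided by DESeq2 1.38.2 size factors, a signal in normalized counts. The deposited log2 fold changes, scores (statistics and errors) and p-values of the authors were not used. Reads were recovered as whole multiples of the smallest value (100% within 0.05). The main test was limma 3.58.1 on log2(normalized count + 1) (R 4.3.3, trend, mean of at least 10, Benjamini-Hochberg adjusted p under 0.1 and 1.5-fold). edgeR 4.0.16 and DESeq2 1.42.0 were run on the reads of 5 libraries. Those of hnRNPL-deficient library 2, whose step is close to 1, were left out of these runs, though its reads are given above. Fits were tested on simulated data. Coordinates and exon lengths come from GENCODE M21 on GRCm38, matching 17615 of 17640 tested genes, and promoters from RefSeq. The members, gene lists and tests were chosen with earlier results of these data known. Named genes are the members, *Hnrnpl*, the nearest tested or overlapping genes, up to 3 called genes per list and direction, up to 5 called genes per direction between *Axl* and *Hnrnpl*, the most similar profiles and defining markers. Alternatives were other pseudocounts (0.5 and 5), filters, scalings, thresholds, libraries left out, a replicate block and, added after seeing the data, *Xist* as a covariate.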

Additional observations from a re-analysis of the deposited data

How the results depend on the processing

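The log2 fold changes of *Axl*, *Pros1* and *Tyro3* kept their direction under every alternative run. At an adjusted p under 0.05 and 2-fold, 216 genes were called lower, 610 higher and 8 in the pathway lists. With libraries left out in turn these counts were 483 to 695, 850 to 1124 and 7 to 13, the lowest each time without WT library 3. The labels do not say that replicate numbers pair the mice. The deviations of same-numbered libraries had correlations of 0.43, 0.32 and 0.07, and those of differently numbered ones lay between -0.46 and 0.31. WT library 3 correlated best with hnRNPL-deficient library 2 (0.31), the other library high in *Xist*. Whether the numbers mark pairs was not tested. With the replicate block 1018 genes were called lower, 1755 higher and 15 in the lists. Of the alternatives for 43 named genes, 641 kept the call and direction, 105 lost a call, 1 gained it and 14 changed sign, all among uncalled neighbours. These were *Hnrnpul1* (0.0460 with quantile normalization), *Gm4613* (0.0153 with quantile normalization, 0.0487 in edgeR, 0.0250 in DESeq2, -0.32 to 0.0428 with libraries left out), *Tmem87b* (-0.18 to 0.00583 with libraries left out), *Rpap1* (-0.29 to 0.0512 with libraries left out) and *4930453N24Rik* (0.00694 with equal totals, 0.0127 with quantile normalization, 0.0312 in edgeR, 0.00929 in DESeq2, -0.16 to 0.0801 with libraries left out). The cause was not tested. Depth limits *Gas6* and *Mertk*, for which no fit was made.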

Other observations

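Other vitamin K-dependent proteins, which share the Gla domain with Gas6 and protein S, included some of the larger differences of the lists. Of 13 such genes 4 were tested, and 2 were called higher and none lower, where 7.28% of all tested genes were called higher. The median log2 fold change was 0.92, but 0.0083 over the 8 genes tested without a filter on low values and 1.99 over the 3 tested at a mean of 50. *Prrg4*, a transmembrane Gla protein gene, had 234.4, 196.3 and 172.1 normalized counts in WT and 1317, 949.1 and 1124 in hnRNPL-deficient libraries (log2 fold change 2.48, SE 0.180, adjusted p = 0.000203 from limma). *F9*, the gene of coagulation factor IX, had 41.8, 38.9 and 27.5 in WT and 126.2, 121.2 and 197.4 in hnRNPL-deficient libraries (log2 fold change 1.99, SE 0.293, adjusted p = 0.00485 from limma). Both kept their call under every alternative run, whereas *Pros1*, of the same protein class, was lower and *Prrg1* (-0.58, SE 0.283) and *Prrg2* (-0.16, SE 0.261) were not called.

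Among 55 other receptor tyrosine kinases 9 were tested, and 1 was called lower and 1 higher, where 11.4% of all tested genes were called in either direction. *Epha2*, an ephrin receptor gene, had 72.0, 120.2 and 68.1 normalized counts in WT and 627.5, 675.5 and 530.4 in hnRNPL-deficient libraries (log2 fold change 2.84, SE 0.246, adjusted p = 0.000475 from limma), a difference of similar size to that of *Axl* with the opposite sign. *Igf1r*, the gene of the insulin-like growth factor 1 receptor, had 325.4 ± 72.7 in WT and 212.3 ± 20.9 in hnRNPL-deficient cells (log2 fold change -0.60, SE 0.200, adjusted p = 0.0948 from limma), and this call was lost when any 1 library was left out, with an adjusted p of up to 0.272. The median of the 9 was 0.23.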
